A study of Homo sapiens with 16 samples.

Results

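A set of 9 genes of the MHC class I pathway was followed in HCC70, a basal-like breast carcinoma line in long use carrying short hairpin RNAs (shRNAs) delivered by infection. The 9 members are HLA-B, HLA-C, HLA-E, B2M, TAP1, TAP2, TAPBP, PSMB8 and PSMB9, taken by name from the 11282 genes of the deposited table, and each had 1 row there. The 16 libraries comprise 2 for each of 8 constructs. Hairpins named for KLF5, RBPJ, NFIB and FOXA1 make the 4 targeted groups, and plko, shRFP, shLACZ and shLUC make the 4 control groups, taken as non-targeting from their names. All cells were HCC70 grown in 96-well plates, and the labels give no other treatment, age or time. The libraries are numbered 1 and 2 as in the labels, and each of the 16 has its own construct identifier (for instance TRCN0000014681 for NFIB 1, TRCN0000274124 for NFIB 2, TRCN0000016207 for RBPJ 1 and TRCN0000016203 for RBPJ 2). No hairpin therefore has a second library, and p-values measure the spread between constructs in a single line.

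MHC class I molecules show peptides from inside the cell to CD8 T cells. Proteasomes cut cytosolic proteins, the TAP transporter carries the peptides into the endoplasmic reticulum, a loading complex fits them into a heavy chain bound to beta-2-microglobulin, and the finished complex moves to the cell surface. Interferons raise the transcription of most of these genes, and tumour cells often lower them. Except for B2M, the members lie in the MHC region of chromosome 6, where TAP1 and PSMB9 are read in opposite directions from neighbouring start sites. In the RefSeq table of GRCh38.p14, those 2 start sites are 488 bases apart.

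Promoter stretches are shown because most of the members are textbook interferon targets, and because the results below set the members beside interferon-stimulated genes. Promoter windows from 250 bases before to 50 bases after a RefSeq start site (GRCh38.p14) were found for 8 of the 9 members, in 10 windows, since TAP1 and PSMB8 have 2 each. The letters GAAANNGAA, the core of an interferon response element, were searched on both strands. They occurred in 5 of the 10 windows, 1 each of B2M, TAP1, TAP2, TAPBP and PSMB8, and in 8.11% of the 35116 windows of this length in the table. The stretches below run 5′ to 3′ on each gene's own strand, with matched letters in capitals, and overlapping matches run together in B2M, TAP1 and TAPBP. They lie at chr15:44711363-44711397 (plus strand) for B2M and, on the minus strand, at chr6:32853813-32853847 for TAP1, chr6:32838779-32838807 for TAP2, chr6:33314074-33314108 for TAPBP and chr6:32844032-32844060 for PSMB8.
B2M: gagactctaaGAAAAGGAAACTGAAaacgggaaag
TAP1: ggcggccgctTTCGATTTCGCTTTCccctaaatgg
TAP2: ctggggaagcGAAAGCGAAagctgcccga
TAPBP: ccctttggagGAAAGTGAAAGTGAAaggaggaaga
PSMB8: atctgtggctTTCGCTTTCacttcctcct
The first matched base lay 144 bases before the start site in B2M, 133 in TAP1, 58 in TAP2, 20 in TAPBP and 3 in PSMB8. The RBPJ core TGGGAA, searched likewise, was in 4 of the 10 windows (HLA-B, HLA-C, TAP1 and PSMB9) and in 24% of all windows. TTGGC, the core that nuclear factor I proteins bind, was in 6 of the 10 windows (HLA-B, HLA-C, B2M, TAP2 and both of PSMB8) and in 45.6% of all windows. A match describes the letters only, and a window without a match may hold a site in other letters. The TAP1 match lay between the start sites of TAP1 and PSMB9, outside the PSMB9 window, which begins at chr6:32853942.

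Recovered reads ran from 375713 in plko 1 to 3090666 in RBPJ 1, and a member had between 29 and 23393 reads in a library. Values are the deposited normalized signal. As a label check, the targeted transcript NFIB was at 238 in NFIB 1 and 42.2 in NFIB 2, against 384 ± 102 (SD, n = 8) in the controls, and it was also low in RBPJ 2, at 201. RBPJ was at 43.3 in RBPJ 1, inside the control range of 43.1 to 68.4, and at 8.53 in RBPJ 2, so directions drawn from the library labelled RBPJ 1 rest on its label. KLF5 was at 62.6 and 37.3 (controls 94.8 ± 13) and FOXA1 at 24.4 and 58.6 (107 ± 36.4). Among the control constructs 309 genes differed, and 12 without the plko libraries, so results that rest on plko are given without it as well.

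HLA-B, HLA-C and HLA-E encode class I heavy chains, HLA-B and HLA-C being classical and highly polymorphic and HLA-E a ligand of inhibitory receptors on natural killer cells. HLA-B was at 2127 and 855 in RBPJ 1 and 2, at 1438 and 2153 in NFIB 1 and 2, at 1389 and 985 in KLF5 1 and 2, and at 958 and 1053 in FOXA1 1 and 2. Its 8 controls ran from 797 (plko 2) over a median of 1225 to 1701 (plko 1). Only NFIB 2 and RBPJ 1 lay above the control range, and they differed from each other by less than the control SD of 355. HLA-C had the same 2 libraries on top, at 894 in NFIB 2 and 870 in RBPJ 1, with 624 in NFIB 1 and 305 in RBPJ 2. Its other targeted libraries were at 306 and 197 (KLF5) and 340 and 373 (FOXA1), and its controls ran from 169 (plko 2) over 460 to 667. HLA-E was at 82 and 112 in NFIB 1 and 2, at 89 and 61.2 in RBPJ 1 and 2, at 88.1 and 66.5 with KLF5 and at 53.3 and 75.1 with FOXA1. Its controls ran from 53.5 over 71.5 to 106 (plko 1), so NFIB 2 was the only library above them and FOXA1 1 the only one below. Reads of heavy chain genes can be shared among near-identical copies, so values of single HLA genes are uncertain.

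B2M, the invariant light chain that every class I heavy chain needs to leave the endoplasmic reticulum, was highest in a control library. It was at 8675 in plko 1, and the other controls ran from 3083 to 5659. Among targeted libraries it was at 3354 and 6108 in NFIB 1 and 2, at 5816 and 2802 in RBPJ 1 and 2, at 3633 and 3616 with KLF5 and at 3805 and 3501 with FOXA1. RBPJ 2 was the lowest of all 16 libraries, which 8.7% of tested genes also show.

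**Figure D1:**
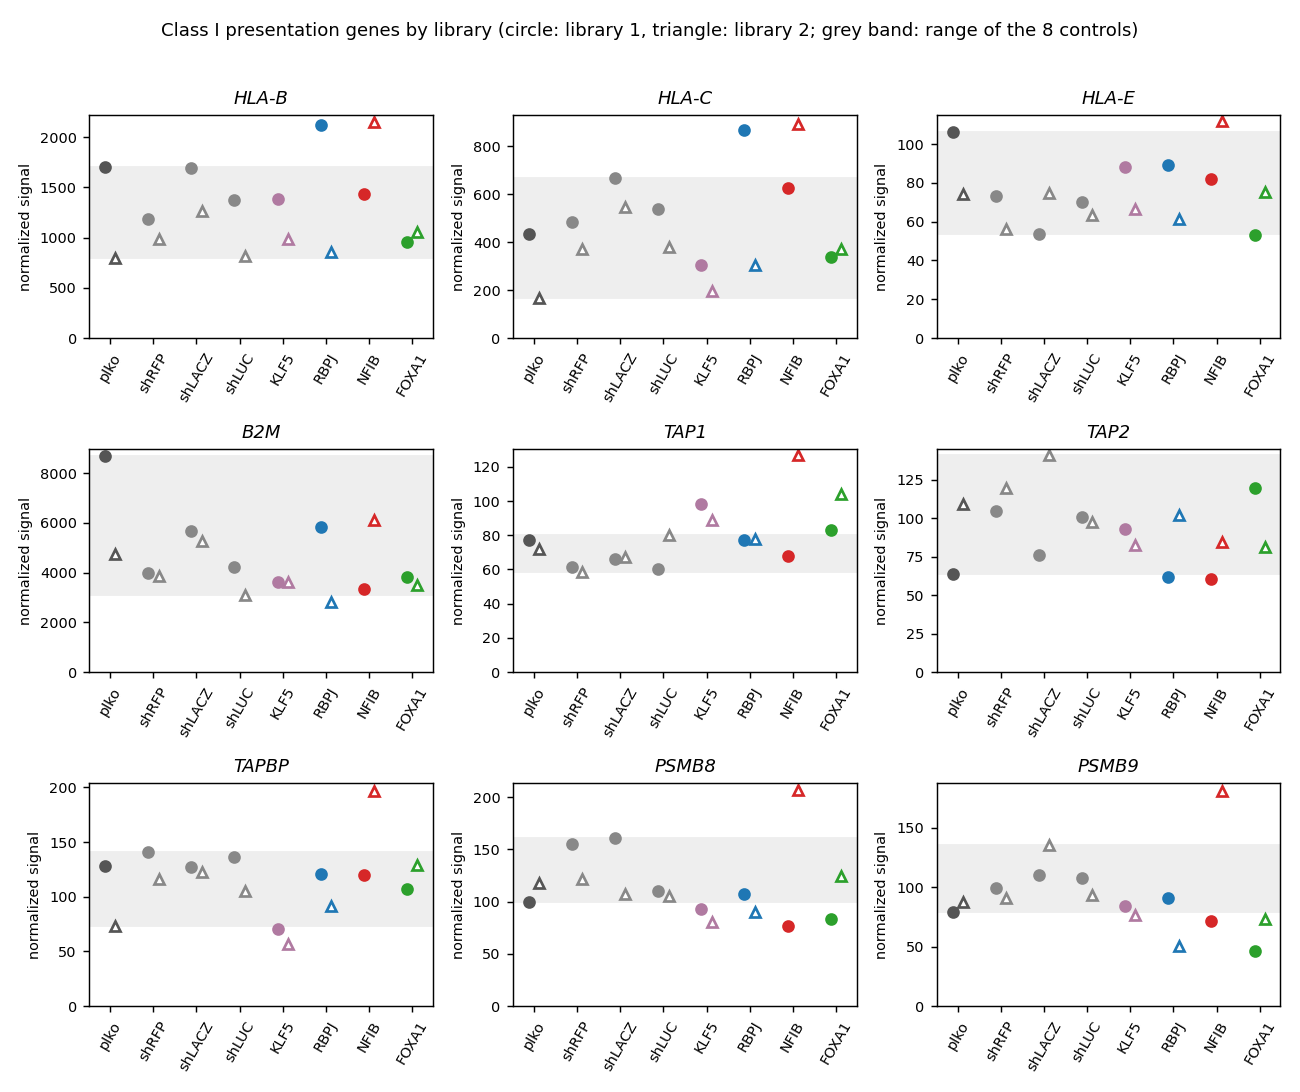
Deposited normalized signal (vertical axis, from 0) of the 9 class I presentation genes in each of the 16 libraries, by construct. Circles are library 1, open triangles library 2, and the grey band is the range of the 8 controls; NFIB 2 lies above the band for HLA-B, HLA-C, HLA-E, TAP1, TAPBP, PSMB8 and PSMB9.

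TAP1 and TAP2 together form the peptide transporter, and TAPBP (tapasin) bridges it to the heavy chain. TAP1 was at 67.7 and 127 in NFIB 1 and 2, at 77.1 and 77.8 in RBPJ 1 and 2, at 98.1 and 88.7 with KLF5 and at 83 and 104 with FOXA1. Its controls were narrow, from 58.7 over 66.8 to 80.3, and NFIB 2 and both libraries of KLF5 and of FOXA1 lay above them. TAP2 did not follow its partner. It was at 60.8 and 84.4 in NFIB 1 and 2, at 61.9 and 102 in RBPJ 1 and 2, at 93.1 and 82.8 with KLF5 and at 120 and 81.1 with FOXA1, while its controls ran from 64 (plko 1) over 103 to 141. NFIB 1 and RBPJ 1 were the only libraries below the control range, and none lay above it. TAPBP was at 120 and 197 in NFIB 1 and 2, at 121 and 92 in RBPJ 1 and 2, at 70.4 and 57.2 with KLF5 and at 107 and 129 with FOXA1, with controls from 73.7 (plko 2) over 125 to 141. NFIB 2 was above all controls and both KLF5 libraries were below them.

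PSMB8 and PSMB9 are the interferon-inducible catalytic subunits that replace standard ones in the immunoproteasome. PSMB8 was at 76.5 and 207 in NFIB 1 and 2, at 107 and 90.1 in RBPJ 1 and 2, at 93.1 and 80.5 with KLF5 and at 83 and 125 with FOXA1. The controls ran from 99.3 over 114 to 161, so the 2 NFIB libraries were the lowest and the highest of all 16. Both KLF5 libraries, RBPJ 2 and FOXA1 1 also lay below the control range. PSMB9 was at 71.8 and 181 in NFIB 1 and 2, at 91.3 and 50.7 in RBPJ 1 and 2, at 84.6 and 77 with KLF5 and at 46.1 and 73.6 with FOXA1. Its controls ran from 79.4 over 96.3 to 136. NFIB 2 stood above them, and NFIB 1, RBPJ 2, KLF5 2 and both FOXA1 libraries below. The antisense transcript PSMB8-AS1 lies against PSMB8, and the sources used here do not say whether reads were counted by strand.

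NFIB 1 was compared with NFIB 2 to ask whether hairpins that left different amounts of NFIB transcript also differed in class I genes. All 9 members were lower in NFIB 1, with a median log2 difference of -0.72 (NFIB 1 minus NFIB 2, on the log2(value + 1) scale), against 0.03 over all tested genes, of which 52.1% were higher in NFIB 1. NFIB 2 was the highest of the 16 libraries for 7 members, where 5.88% of tested genes have their highest value in it. NFIB 1 was the lowest for TAP2 and PSMB8, where 5.97% of tested genes have their lowest value. The widest differences were those of the immunoproteasome subunits, with ratios of NFIB 2 to NFIB 1 of 2.7 for PSMB8 and 2.52 for PSMB9. TAP1, B2M and TAPBP had ratios of 1.88, 1.82 and 1.65, and the heavy chains and TAP2 of 1.37 (HLA-E) to 1.5 (HLA-B).

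No member passed the test of NFIB 1 against NFIB 2. Each hairpin is a single library, so limma took the spread from the other groups and assumed that these libraries vary like them; neither hairpin has a replicate check. PSMB8 was at -1.42 ± 0.39 (SE, adjusted p = 0.331) and PSMB9 at -1.32 ± 0.39 (adjusted p = 0.367), followed by TAP1 at -0.90 ± 0.35 (adjusted p = 0.704). For the other 6 the adjusted p was 0.955 or higher. Over all genes 0 of 10826 (0%) passed by limma, 601 were at an unadjusted p under 0.05, and edgeR called 1. Without the plko libraries 79 genes passed (0.733%), and PSMB8 was the only member among them (-1.42, adjusted p = 0.0487).

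The difference between the 2 libraries of NFIB was also set against that of every other construct. It was larger in size than in each of the 6 constructs other than NFIB and RBPJ for TAP1, PSMB8 and PSMB9, so for 3 of 9 members, where 17.5% of tested genes show this. For PSMB8 the largest of those 6 was 0.58 (FOXA1), and for PSMB9 0.66 (FOXA1). For HLA-B and HLA-C the plko libraries differed more, by 1.09 and 1.36, than the NFIB libraries, by -0.58 and -0.52.

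RBPJ 1 was compared with RBPJ 2 on the same question, and here RBPJ 1, the library with RBPJ transcript at the control level, was the higher one for 7 members. That direction was not particular to RBPJ. For HLA-B, HLA-C, B2M and TAPBP library 1 was also the higher one in every control construct and in KLF5. In plko the log2 differences of these genes were 1.09, 1.36, 0.87 and 0.79. FOXA1 1 was lower than FOXA1 2 for HLA-B, HLA-C and TAPBP. For HLA-E, TAP1, TAP2, PSMB8 and PSMB9 the control constructs differed in sign. The median log2 difference (RBPJ 1 minus RBPJ 2) was 0.53 over the 9 members and 0.01 over all tested genes, of which 50.9% were higher in RBPJ 1. The ratio of RBPJ 1 to RBPJ 2 was 2.49 for HLA-B, 2.86 for HLA-C, 2.08 for B2M, 1.8 for PSMB9 and 1.46 for HLA-E. TAPBP and PSMB8 had ratios of 1.32 and 1.19, TAP1 was at 0.991 and TAP2 at 0.604.

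By limma no member passed in RBPJ 1 against RBPJ 2 either, with the same assumption about lone libraries. HLA-B was at 1.31 ± 0.46 (SE, adjusted p = 0.375) and HLA-C at 1.51 ± 0.58 (adjusted p = 0.469). B2M was at 1.05 ± 0.47 (adjusted p = 0.61) and PSMB9 at 0.83 ± 0.39 (adjusted p = 0.631), while TAP1 (-0.01 ± 0.35) and PSMB8 (0.24 ± 0.39) were near 0. Over all genes 10 passed (0.0924%), all higher in RBPJ 1, among them RBPJ itself (2.21, adjusted p = 0.0443). Without the plko libraries 292 genes passed (2.71%), and HLA-C (adjusted p = 0.0118) and HLA-B (adjusted p = 0.0308) were the members among them. The 10 genes became 129 without plko 1 and 2 or 3 without either shRFP, shLACZ or FOXA1 library or without shLUC 1, and no member was called in any of these.

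The RBPJ difference exceeded that of the 6 other constructs for HLA-B, HLA-C, HLA-E, B2M and PSMB9, which is 5 of 9 members, and does so for 20.5% of tested genes. The margin was small for HLA-E, at 0.53 against 0.51 in plko. In both pairs heavy chains and B2M differed in the same direction as one another, whereas TAP1 and PSMB8 exceeded the 6 other constructs in the NFIB pair and not in the RBPJ pair. That contrast between the pairs was not tested.

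**Figure D2:**
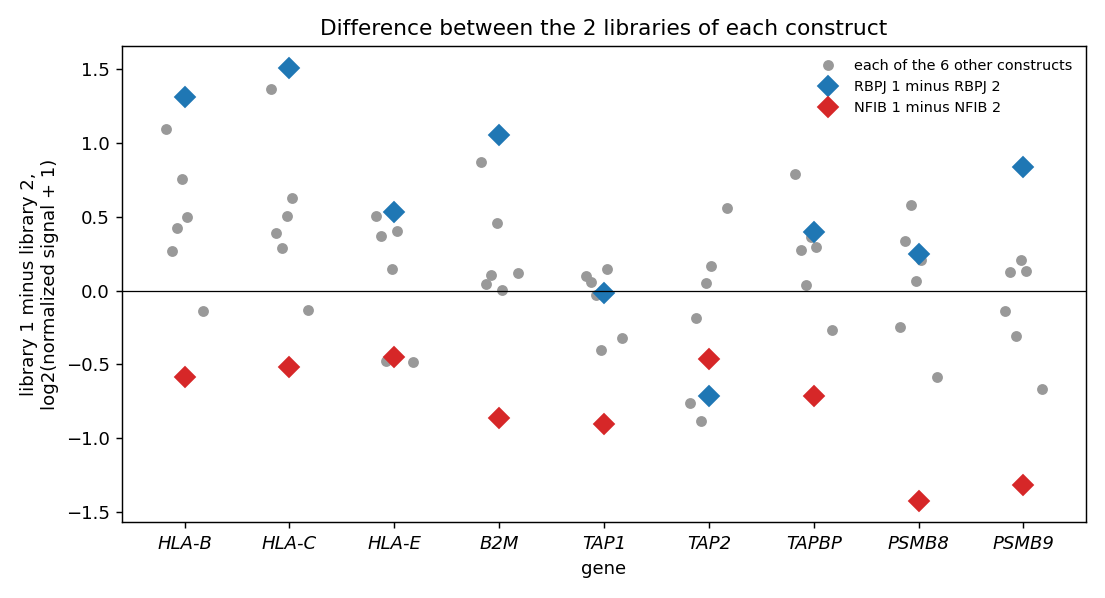
Library 1 minus library 2 of each construct (vertical axis, log2 of normalized signal + 1) for the 9 genes. Red diamonds (NFIB) lie below 0 for all 9, with PSMB8 at -1.42 and PSMB9 at -1.32; blue diamonds (RBPJ) lie highest for HLA-C, at 1.51; grey points are the 6 other constructs.

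Set against the 8 controls, both hairpins of a target together, 1 member passed in 4 comparisons. TAPBP was lower with the KLF5 hairpins, by -0.87 ± 0.23 on the log2 scale (limma adjusted p = 0.0296), at 70.4 and 57.2 against 119 ± 21.3 (n = 8). In that comparison 5.37% of all tested genes passed, the other 8 members did not, and the median was -0.30 over the members and 0.05 over all genes. HLA-C was at -0.78 ± 0.37 there (adjusted p = 0.244) and TAP1 at 0.46 ± 0.22 (adjusted p = 0.238). The TAPBP call was lost without KLF5 1 (-1.02, adjusted p = 0.158), KLF5 2 (-0.72, 0.319), shRFP 1 (-0.83, 0.0519) or shLUC 1 (-0.84, 0.0506). It held without the plko libraries, where HLA-C passed too (-0.99, adjusted p = 0.0248) and 12.2% of tested genes passed. TAPBP also differed between targets: KLF5 minus NFIB was -1.26 ± 0.30 (adjusted p = 0.0261), the only member that passed in the 6 differences between 2 targets. Of all genes 2.79% passed in that difference, 1.79% in KLF5 minus RBPJ, 2.88% in KLF5 minus FOXA1, 0% in RBPJ minus NFIB, 0.0647% in RBPJ minus FOXA1 and 0.0277% in NFIB minus FOXA1. That call was lost without KLF5 1 (-1.41, adjusted p = 0.0926), KLF5 2 (-1.11, 0.177) or NFIB 2 (-0.90, 0.213).

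With the NFIB hairpins 7 members were above the control mean on the log2 scale and none passed, where 0.00924% of all genes did. The median was 0.39 over the members and 0.05 over all genes. HLA-C was at 0.83 ± 0.37 (adjusted p = 0.735), HLA-B at 0.57 ± 0.31 (adjusted p = 0.758) and TAP1 at 0.45 ± 0.22 (adjusted p = 0.744). These means joined unlike libraries: the members' median was 0.77 in NFIB 2 alone and 0.003 in NFIB 1 alone. With NFIB 2 alone against the controls TAP1 came closest to passing, at 0.91 ± 0.26 (adjusted p = 0.652).

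With the RBPJ hairpins no member passed (0.0277% of all genes did), 5 members were below the control mean, and the median was -0.14. It was 0.19 with RBPJ 1 alone and -0.41 with RBPJ 2 alone, so leaving out RBPJ 2 turned its direction. The FOXA1 hairpins had 7 members below the control mean and a median of -0.24, and none passed (0.00924% of all genes did). PSMB9 was at -0.76 ± 0.28 (adjusted p = 0.81) and TAP1 at 0.45 ± 0.22 (adjusted p = 0.958). The controls are shared by all 4 comparisons, so TAP1 values of 0.45 to 0.46 with the KLF5, NFIB and FOXA1 hairpins are not independent of one another.

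**Figure D3:**
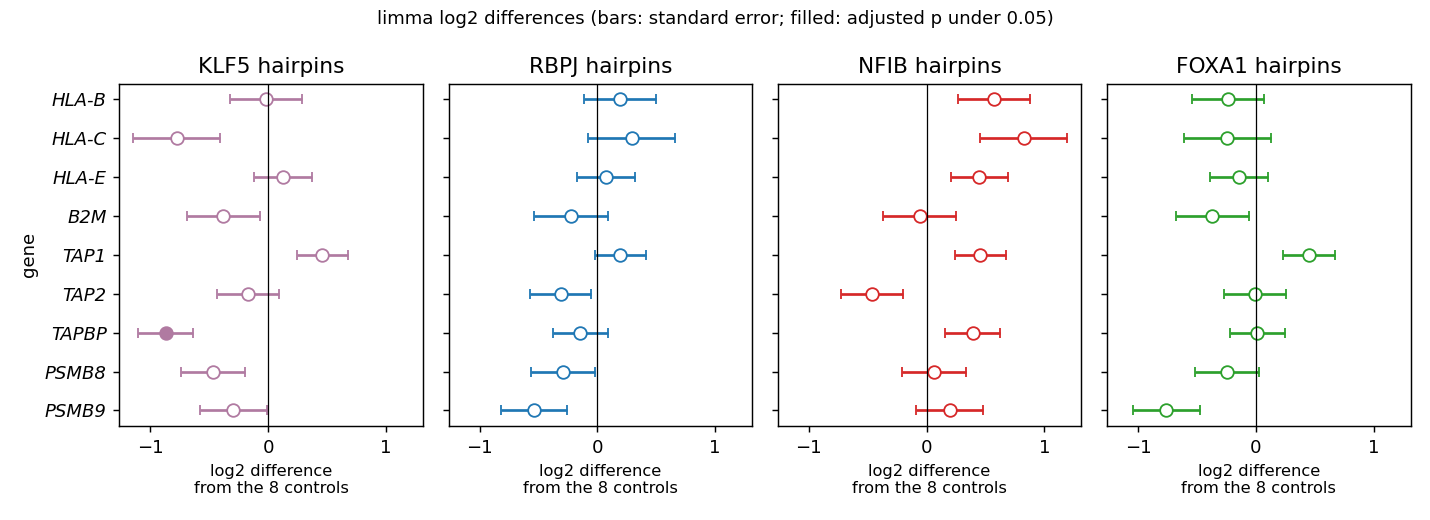
log2 difference from the 8 controls (horizontal axis) for each gene and each target, from limma; bars are the standard error and the filled point marks an adjusted p under 0.05. TAPBP with the KLF5 hairpins, at -0.87, is the only filled point.

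Groups that did not overlap with the controls were few. Both KLF5 libraries lay outside the range of all 8 controls for 3 members, above for TAP1 and below for TAPBP and PSMB8, as for 16.3% of tested genes. Both FOXA1 libraries did so for 2, above for TAP1 and below for PSMB9, where the share of genes was 5.07%. Both RBPJ libraries and both NFIB libraries did so for 0 members, with shares of 4.46% and 6.12%.

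Among the control constructs no member passed limma's F test, in which 2.99% of 10323 genes passed. B2M and HLA-C had the smallest p (adjusted p of 0.143 and 0.146), the first with 8675 and 4739 in plko against 4345 ± 955 in the other 6 controls, the second with 435 and 169 against 498 ± 113. The 2 plko libraries were themselves far apart for HLA-B, at 1701 and 797. Over the 8 controls the SD as a share of the mean ran from 11.7% (TAP1) to 34.8% (B2M).

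The other pathway genes were taken from lists. Of further heavy chain genes, HLA-F, a non-classical one, was at 43.5 and 15.6 in RBPJ 1 and 2 and at 22.6 and 77.2 in NFIB 1 and 2 (controls 18.4 to 46.3). RBPJ 1 and NFIB 2 were the higher library of the pair, as for HLA-B and HLA-C, and HLA-F did not pass. Of the 7 genes of the loading complex and transport list, 1 passed against the controls with KLF5 (TAPBP; 5.37% of all genes passed), and none with RBPJ, NFIB or FOXA1 or in either hairpin pair. Of the 4 that are no members, 3 were higher in NFIB 2 than in NFIB 1 and 3 higher in RBPJ 2 than in RBPJ 1. PDIA3, the thiol oxidoreductase of the loading complex, was at 282 and 510 in NFIB 1 and 2 (controls 266 to 415), without passing, and at 345 and 349 in RBPJ 1 and 2. CANX, the chaperone calnexin, went the other way in the NFIB libraries, at 443 and 372, and was at 384 and 400 in RBPJ 1 and 2. ERAP1, the peptidase that trims peptides to length, was at 7.52 and 13.1 in NFIB 1 and 2 and at 11.9 and 10.9 in RBPJ 1 and 2. Over all 16 libraries it had as few as 3 reads in a library. PSME1 and PSME2, the interferon-inducible proteasome activator, were higher in NFIB 2 than in NFIB 1, at 374 against 189 and 399 against 211, and did not pass. Controls of PSME1 ran from 181 to 437, so NFIB 2 was inside them, with KLF5 1 and 2 at 439 and 394. Those of PSME2 ran from 223 to 359, with KLF5 1 and 2 at 377 and 312. The 4 standard proteasome counterparts of the list went the other way without passing, all higher in NFIB 1, with a median of 0.21. PSMB7, the standard subunit of the trypsin-like site, fell with the KLF5 hairpins, to 52.6 and 84 from 142 ± 28.9 (log2 -1.06, adjusted p = 0.0175), and was the only 1 of these 4 to pass there. PSME3, the activator of the nuclear proteasome, differed among the control constructs (F test, adjusted p = 0.0153). PDIA3, CANX, PSME1, PSME2 and PSMB7 were chosen after their values were seen.

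Of 14 transcriptional and signalling regulators tested, 3 passed against the controls with KLF5, where 5.37% of all genes passed, and 0 with RBPJ, NFIB or FOXA1 or in either hairpin pair. JAK1, a kinase of interferon receptors, fell by 1.06 on the log2 scale (adjusted p = 0.00581), to 139 and 130 from 284 ± 50.5. RELA, the p65 subunit of NF-kB, fell by 1.63 (adjusted p = 0.0048), to 14.9 and 11.7 from 44.7 ± 12, and its partner NFKB1, also chosen after its value was seen, rose by 0.77 (adjusted p = 0.0484). IRF1, an interferon-induced activator of class I genes, was at 26 and 38 in NFIB 1 and 2 and at 16.1 to 49.3 in the controls. NLRC5, the class I transactivator, was at 6.83 and 12.2 against 3.59 to 15.4, on as few as 3 reads a library.

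Interferon-stimulated genes were read beside the members, as 25 tested genes of a list that holds no member. All 25 were lower in NFIB 1 than in NFIB 2, with a median of -1.49, and 22 of 25 were higher in RBPJ 1 than in RBPJ 2, with a median of 1.15. None passed in either pair. Without the plko libraries 11 passed in the NFIB pair, all lower in NFIB 1, among them OAS1 and IFI6, where 0.733% of all genes passed. In the RBPJ pair 6 passed without plko, all higher in RBPJ 1, among them IFI6, where 2.71% of all genes passed. IFI6, a mitochondrial and endoplasmic reticulum protein induced by interferon, was at 259 and 1747 in NFIB 1 and 2, at 1277 and 101 in RBPJ 1 and 2 and at 142 to 973 in the controls. Its controls were wide, and IFI6, OAS3, BST2 and IFITM1 were the 4 of the 25 that differed among control constructs, where 2.99% of 10323 genes did. OAS1, a sensor of double-stranded RNA, was at 43.1 and 193 in NFIB 1 and 2 and at 40.8 to 90.5 in the controls. In KLF5 1 the list's median lay above the control mean, at 0.43, while the members' median was -0.23, and in FOXA1 2 the medians were 0.36 and -0.17. With the KLF5 hairpins 3 of the 25 passed, where 5.37% of all genes did (332 of those 581 lower), all 3 lower: IFITM1 (log2 -4.53, adjusted p = 0.00218), BST2 (-1.57, 0.0353) and SAMD9 (-1.22, 0.00764), antiviral restriction factors. BST2 was at 122 and 71.2 in KLF5 1 and 2, at 150 and 102 in plko 1 and 2 and at 266 to 517 in the other 6 controls. IFITM1 was at the floor, at 0 and 1.17 in KLF5 1 and 2 (controls 3.72 to 113), so the size of its difference rests on the added 1. Its relatives IFITM2 and IFITM3 went the other way, by 0.60 and 0.84, without passing. Of the 25, 13 were above the control mean with the KLF5 hairpins. The part of interferon signalling in the members' values was not tested.

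**Figure D4:**
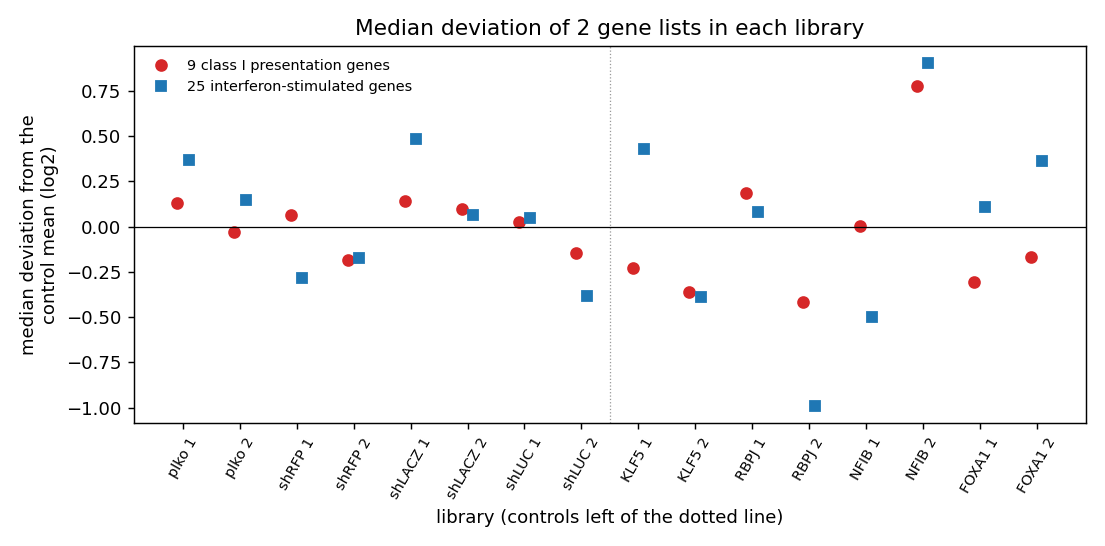
Median deviation from the control mean (vertical axis, log2) of the 9 class I presentation genes (red circles) and of 25 interferon-stimulated genes (blue squares) in each library. NFIB 2 is highest for both lists, at 0.77 and 0.90, and RBPJ 2 lowest for both, at -0.41 and -0.99.

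Class II genes, which present peptides to CD4 T cells and are also interferon-inducible, were low except for CD74, the invariant chain. CD74 was at 280 and 27 in RBPJ 1 and 2, at 128 and 366 in NFIB 1 and 2 and at 61.2 to 284 in the controls. All 6 class II genes tested were higher in RBPJ 1 than in RBPJ 2 and 5 of 6 higher in NFIB 2 than in NFIB 1, and none passed. CD74 differed among the control constructs (adjusted p = 0.0417) and was chosen after its values were seen.

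Markers of the line and of other cells were read in the same libraries. The summed value of 6 epithelial and basal markers was 6536 and 3270 in NFIB 1 and 2, 3720 and 7355 in RBPJ 1 and 2, and 3356 to 5845 in the controls. KRT17, a basal and stress keratin, was at 1800 and 403 in NFIB 1 and 2 and at 453 and 2440 in RBPJ 1 and 2, so it was lower in the library of each pair in which HLA-B was higher. The 6 markers were not alike in this. All 6 were higher in NFIB 1 than in NFIB 2, though EPCAM hardly differed, at 290 and 280. In the RBPJ pair 1 went the other way from KRT17: the basal keratin KRT14, at 33.6 and 25.6 in RBPJ 1 and 2. Of 6 leukocyte markers 2 were in the table, with sums of 19.1 and 45.6 in NFIB 1 and 2, 41.5 and 9.48 in RBPJ 1 and 2 and 37.4 to 56.9 in the controls. PTPRC, the pan-leukocyte marker that defines the list, was at 0 in NFIB 2 and at 3.23 in RBPJ 1 (controls 0 to 3.21). CD14, a lipopolysaccharide co-receptor, made up nearly all of the sum. It was at 38.3 and 7.11 in RBPJ 1 and 2 (log2 2.28, adjusted p = 0.0443) and at 17.1 and 45.6 in NFIB 1 and 2, so the libraries with higher class I genes were inside its control range of 36.6 to 55.2 and their partners below it. KRT17, KRT14, EPCAM, PTPRC and CD14 were chosen after their values were seen. The summed value of 4 fibroblast markers was 38.3 and 40.1 in NFIB 1 and 2, 8.38 to 25.8 in the controls, 35.5 and 43.2 with KLF5 and 20.9 and 25.1 in RBPJ 1 and 2, so the members of either pair differed little in it. The hormone receptor genes ESR1 and PGR summed to 2.21 to 14.1 over all libraries. The part of these markers in the members' values was not tested. Fewer cells of a state and less RNA per cell cannot be told apart in these bulk libraries.

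The members did not share a single pattern. Over the 16 libraries, Pearson's r of a member with the mean of the other 8 was 0.75 for HLA-B, 0.73 for TAPBP, 0.71 for PSMB9, 0.69 for HLA-C and 0.65 for PSMB8. It was 0.59 for B2M and 0.50 for HLA-E, but 0.11 for TAP1 and -0.35 for TAP2. These are descriptions over libraries that share constructs and a depth scale, and they carry no p. Of 6383 other genes with a mean value of at least 20, the 6 of highest r with the mean of the members were MDK, a heparin-binding growth factor (0.87), RTP4 (0.87), IFI27 (0.86), PLAAT3, a phospholipase (0.85), OAS1 (0.84) and UBE2L6, the conjugating enzyme of ISG15 (0.84). Over the 12 libraries without plko and KLF5 the r of these 6 ran from 0.80 (UBE2L6) to 0.93 (RTP4). RTP4 was at 98.3 in NFIB 2 and 14.7 in RBPJ 2.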

How the data were processed

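The authors deposited 1 table of 16 described libraries, whose values are a normalized signal, DESeq2-normalized per the name of the deposited table, on GRCh37 per the submitters' processing notes; the sources used here do not give aligner, counter, annotation or strand use. Some samples were run again for low representation, and barcoding was in batches of 12, per the labels' protocols; which samples is not given, so batch and construct cannot be told apart. The table held 2 columns that match no described sample, and these were not used. All values (100%) were whole multiples of 1 read within 0.05 of a read, so reads were recovered. Symbols were found for 11259 of 11282 identifiers. A gene entered the tests with a value of 5 or more in 2 or more libraries (10826, with 456 removed; 10323 within the controls). limma 3.58.1 with a mean-variance trend was run on log2(value + 1), which understates changes of low genes, in R 4.3.3. A target was set against 8 controls in 5 groups, and hairpin pairs were tested with the 4 NFIB and RBPJ libraries each alone, in 7 groups. Calls need a Benjamini-Hochberg adjusted p under 0.05 over all genes, 2-sided. edgeR 4.0.16 on recovered reads was an alternative, as were a pseudocount of 4, no filter, no plko, a replicate block and each library left out. The 6 differences between targets were added after seeing results. Scripts were tested on simulated data. Named genes were the 9 members, the 4 targets, list genes that passed (at most 8 by p), the preset HLA-F, ERAP1, NLRC5 and IRF1, and the 6 genes most like the members; other genes named were chosen after their values were seen. Members and lists were chosen with earlier results of these data known.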

Additional observations from a re-analysis of the deposited data

Results flagged for a closer look

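Among the 8 control libraries, 1 library stood far from the others for 2 members, by Dixon's ratio of the gap to the range. HLA-E in plko 1 was at 106 where the next control was at 75 (ratio 0.59), and B2M in plko 1 was at 8675 where the next was at 5659 (ratio 0.539). The 9 members were each tested in this way, and chance flags about 1 in 20 groups. TAPBP differed between targets by a test of the difference itself: with KLF5 minus NFIB at -1.262 on the log2 scale (limma adjusted p = 0.0261), TAPBP values of 70.4 and 57.2 (KLF5 1 and 2) stood against 120 and 197 (NFIB 1 and 2). That test was added after results were seen, and 2.79% of all genes passed in it. The TAPBP call was lost without KLF5 1, KLF5 2 or NFIB 2.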

How the results depend on the processing

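Counts of genes called moved with the settings. Of the members only TAPBP had a call to lose, with KLF5 against the controls and in KLF5 minus NFIB. All 7 losses given below are of those calls, so the small number of changed calls does not show that the members were stable. As reported 581, 3, 1 and 1 genes passed against the controls with KLF5, RBPJ, NFIB and FOXA1, 0 and 10 in the NFIB and RBPJ hairpin pairs and 309 among the control constructs. Without the plko libraries the counts were 1309 for KLF5, 6 for RBPJ and 2 for FOXA1, 79 and 292 in the pairs and 12 among the controls. edgeR on recovered reads called 0 genes for RBPJ, 0 for NFIB, 1 in the NFIB pair and 123 in the RBPJ pair. A pseudocount of 4 gave 2 genes for FOXA1. With the spread taken from the pairs of the other constructs, 21 and 183 genes passed in the NFIB and RBPJ pairs, and no member. Leaving out 1 library gave 87 (without KLF5 1; 99 without KLF5 2) to 881 (without plko 1) for KLF5, 0 to 142 (without RBPJ 1) for RBPJ, 0 to 2 for NFIB, 0 to 26 (without FOXA1 1) for FOXA1, 0 to 11 (without plko 1) in the NFIB pair, 2 to 129 (without plko 1) in the RBPJ pair, and 98 (without shRFP 1) to 916 (without plko 2) among the controls. The members' median ran from -0.415 to 0.188 for RBPJ and from 0.003 to 0.775 for NFIB in this way. The cause of these changes was not tested. A pair cannot be tested without either of its libraries. Of 1119 member values under these alternatives 1107 kept their side of the threshold, 5 gained a call, 7 lost it and 0 called values changed sign; 28 values that passed nowhere changed sign, from at most 0.312 in size as reported to between -0.647 (PSMB8 with NFIB, without NFIB 2) and 0.373 (B2M with NFIB, without NFIB 1). With the numbers 1 and 2 as a replicate block 579 genes passed for KLF5 and no member call changed. The numbers name different hairpins. Over all tested genes, the correlation of the differences between libraries 1 and 2 ran from -0.195 to 0.216 over 28 pairs of constructs, over 0.1 in 3. These correlations cannot tell whether libraries of the same number shared handling or a batch. HLA-B, HLA-C, B2M and TAPBP were higher in library 1 than in library 2 in every control construct.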
